A study of Homo sapiens with 3 samples.

Results

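The CC chemokines CCL2, CCL5, CCL7, CCL20 and CCL3 and the receptor CCR1 were followed in 2 established human cell lines, MM.1S from multiple myeloma plasma cells and HS-5 from bone marrow stroma. These 6 genes, of 43913 gene symbols in the counts, were selected on their measured values in the same libraries. Their levels are therefore a description. CC chemokines are small secreted proteins that draw leukocytes along a gradient, and they act through receptors with 7 membrane passes coupled to inhibitory G proteins. CCL2 acts mainly through CCR2, CCL20 through CCR6, and CCL3, CCL5 and CCL7 are ligands of CCR1. In myeloma, CCL3 and CCR1 are known for osteoclast formation and bone loss, and stromal CCL2 for the recruitment of monocytes.

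Single cells were profiled by Drop-seq, in which each cell shares a droplet with a barcoded bead and its transcripts are counted as unique molecular identifiers (UMIs). There were 3 libraries, all of untreated cells. One held MM.1S alone, another HS-5 alone, and the third both lines after 4 h of coculture. This is the time in the study's methods, while some of its figure legends give a shorter one. The study asked what the exchange of signals between myeloma and stromal cells does to their transcripts. Each condition was 1 library, so no test was made. MM.1S cells were kept in RPMI and HS-5 cells in DMEM, and the medium of this coculture is not given in the sources used here, so medium and the presence of the other line cannot be told apart.

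The libraries held 3865 to 3994 barcodes and 3981392 to 10433182 UMIs, with medians of 2183 UMIs per cell in MM.1S monoculture, 949 in HS-5 monoculture and 789 in coculture. Requiring 200 or more genes per cell left 3947, 3732 and 3856 cells, and the libraries shared 1 to 7 barcodes of kept cells. Coculture cells were assigned by their UMIs of 69 MM.1S and 198 HS-5 genes that were at least 50-fold higher in their own monoculture. With an HS-5 share of these UMIs under 20%, 1643 cells were taken as MM.1S (median 668 UMIs), and with a share over 80%, 2108 as HS-5 (median 957). The other 105 cells (2.72%) were left out as mixed. Just inside the limits lay 159 MM.1S cells with a share from 10 to 20% and 22 HS-5 cells with a share from 80 to 90%. In the monocultures, no cell crossed its line's limit, with a highest HS-5 share of 16.7% in MM.1S and a lowest of 81.1% in HS-5. The genes behind the share were chosen on these same cells, so this is no independent check of the split. Plasma cell markers summed to 10105 and 6889 counts per 1000000 UMIs (CPM) in MM.1S cells in monoculture and coculture, against 209 and 226 in HS-5. All 10 were found, but SDC1, the plasma cell antigen CD138, did not part the lines (38.1 and 124 CPM in MM.1S, 135 and 126 in HS-5). SLAMF7 was low in both (2.01 and 3.01 CPM in MM.1S, 1.14 and 0 in HS-5). Stromal markers summed to 8858 and 11270 CPM in HS-5 cells and to 6048 and 5679 CPM in MM.1S cells, and not all of the 10 parted the lines. LGALS1 (1847 and 1447 CPM in MM.1S, 3109 and 4528 in HS-5) was high in both lines. So was S100A6 (2926 and 1846 CPM in MM.1S, 3085 and 3780 in HS-5). TAGLN, a smooth muscle and stromal marker, was at 0.326 and 0 CPM in HS-5. The fibronectin gene FN1 was higher in MM.1S (810 and 2225 CPM) than in HS-5 (252 and 280 CPM), and the caveolin gene CAV1 was higher in MM.1S in monoculture (457 beside 356 CPM). Of 8 monocyte or macrophage markers, 7 were found. Their sum was 4.23 to 10.5 CPM, with AIF1 at 0 in HS-5 cells and CD14 and TYROBP at 0 in MM.1S cells in coculture. The 6 T or NK cell markers summed to 1.95 to 6.03 CPM.

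The 6 genes lie in 4 places (GRCh38, GENCODE release 29). CCL2 (chromosome 17, 34255218 to 34257203, plus strand) and CCL7 (chromosome 17, 34270221 to 34272242, plus strand) are neighbours. CCL5 (35871491 to 35880793) and CCL3 (36088256 to 36090169) lie on the minus strand of the same chromosome. CCL20 is on chromosome 2 (227805739 to 227817564, plus strand) and CCR1 on chromosome 3 (46201709 to 46208396, minus strand). The whole of CCR1 lies within CCR3 on the opposite strand without shared exon bases. CCL3 shares 1115 exon bases with an antisense transcript and is nearly identical to CCL3L3, so reads of these copies may have been split between them.

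The RefSeq promoter table (GRCh38.p14, 250 bases before to 50 bases after the start site) matched 4 of the 6 genes. CCL2 and CCL5 had no entry. The windows of CCL7, CCL20 and CCR1 are shown since these are the matched genes with counts to compare, and they were searched on both strands for the κB motif, the AP-1 motif TGANTCA, the STAT motif TTCNNNGAA and the interferon motif (GAAA, any 2 bases, GAAA). Capitals mark the matches. The RefSeq start site of CCL7 is the start of the gene span given above, while those of CCL20 and CCR1 lie inside their spans. The whole CCL20 window lies within its span, so it is not the window at the outer end of that span.
CCL7, chr17:34269971-34270270, plus strand: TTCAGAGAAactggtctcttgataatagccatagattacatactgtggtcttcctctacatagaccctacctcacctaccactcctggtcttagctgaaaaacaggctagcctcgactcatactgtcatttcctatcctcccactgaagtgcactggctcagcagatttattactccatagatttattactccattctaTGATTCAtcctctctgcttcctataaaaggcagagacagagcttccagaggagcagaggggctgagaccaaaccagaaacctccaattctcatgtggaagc
CCL20, chr2:227813592-227813891, plus strand: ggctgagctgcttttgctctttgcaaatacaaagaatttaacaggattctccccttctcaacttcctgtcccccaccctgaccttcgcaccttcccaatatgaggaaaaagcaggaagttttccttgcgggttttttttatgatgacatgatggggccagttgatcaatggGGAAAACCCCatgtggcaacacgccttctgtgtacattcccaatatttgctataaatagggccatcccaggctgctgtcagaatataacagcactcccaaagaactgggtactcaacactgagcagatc
CCR1, chr3:46208264-46208563, minus strand: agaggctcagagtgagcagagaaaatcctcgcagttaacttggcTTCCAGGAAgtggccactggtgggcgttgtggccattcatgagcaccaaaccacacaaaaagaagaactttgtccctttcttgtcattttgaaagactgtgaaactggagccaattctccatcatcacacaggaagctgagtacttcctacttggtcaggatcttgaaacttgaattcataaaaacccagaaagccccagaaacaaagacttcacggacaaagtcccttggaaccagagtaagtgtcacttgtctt
The CCL7 window held a TTCNNNGAA match from base -250 and a TGANTCA match from base -51, counted from the start site. The CCL20 window held a κB match from base -79, read on the minus strand, and the CCR1 window a TTCNNNGAA match from base -206. No window of CCL3 held any of the 4 motifs. Among 35116 promoters of this length, 5.91% held the κB motif, 7.71% TGANTCA, 7.66% TTCNNNGAA and 3.57% the interferon motif. The TTCNNNGAA motif was also in the windows of CCL8 (base -91) and CCL13 (base -154), 2 neighbours of CCL2, while the window of CCL1, at the end of the same run of genes, held none of the 4 motifs. A match says only that these letters are in the window.

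Before contact, the 2 lines carried different chemokine transcripts. CCL5, a chemoattractant of T cells and monocytes, had 834 UMIs in MM.1S monoculture, which is 79.9 CPM (95% Poisson interval 74.6 to 85.6), and 2 UMIs in HS-5 monoculture (0.326 CPM, 0.0394 to 1.18). Its level in MM.1S was 246 times that in HS-5, with a counting interval of 67.7 to 2031. CCL20, which draws cells bearing CCR6, had the opposite pattern, with 428 UMIs (69.7 CPM, 63.2 to 76.6) in HS-5 and 1 UMI (0.0958 CPM) in MM.1S, a ratio of 727 (130 to 28781). The receptor CCR1 was an MM.1S transcript, with 3000 UMIs (288 CPM, 277 to 298) against 15 UMIs (2.44 CPM, 1.37 to 4.03) in HS-5, a ratio of 118 (71.3 to 211).

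CCL2, the monocyte chemoattractant, and CCL7, its close relative, were stromal in monoculture but low. CCL2 had 21.8 CPM (18.3 to 25.8, 134 UMIs) in HS-5 and 4.22 CPM (3.06 to 5.66, 44 UMIs) in MM.1S. The HS-5 level was 5.17 times higher (3.65 to 7.45). CCL7 had 5.54 CPM (3.83 to 7.74, 34 UMIs) in HS-5 and 0.192 CPM (2 UMIs) in MM.1S, a ratio of 28.9 (7.40 to 248). CCL3 had 2 UMIs in MM.1S monoculture and none in HS-5 (3 counts are worth 0.288 and 0.488 CPM), so no ratio is given. Of the 6 genes, 4 averaged 10 CPM or more over the monocultures. Among these, CCL2 and CCL20 were at least 2-fold higher in HS-5, as were 38.1% of 8734 genes, and CCL5 and CCR1 at least 2-fold lower, as were 15.3%. The genes were selected on these values, and nothing is read from the counts.

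In coculture, CCL2 was high in both lines. In MM.1S cells it went from 4.22 CPM in monoculture to 104 CPM in coculture (87.3 to 123, 138 UMIs), 24.6 times higher (exact interval 17.4 to 35.4) and a log2 ratio of 4.33 with a pseudocount of 1 CPM. This was the 7th highest of 7834 ratios among genes averaging 10 CPM or more over both sums. In HS-5 cells it went from 21.8 to 88.9 CPM (77.5 to 101, 221 UMIs), 4.07 times higher (3.27 to 5.09, log2 ratio 1.98), again the 7th highest, of 8813 ratios. CCL2 was selected on these values, and in MM.1S it reached a mean of 10 CPM only through coculture. Nothing is read from either rank. The stromal lead of the monocultures was gone in coculture. The level in HS-5 was 0.855 times that in MM.1S, with a counting interval of 0.688 to 1.07 that includes 1. In order of level, CCL2 was lowest in MM.1S monoculture, then higher in HS-5 monoculture, with the coculture cells of both lines above them and not apart beyond counting error.

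CCL2 UMIs were spread over few cells. In monoculture, 32 MM.1S cells had a CCL2 UMI, and 1 of them held 8 of the 44 UMIs. In coculture, 104 MM.1S cells had one, with at most 5 per cell. In HS-5 it was 79 cells in monoculture and 121 in coculture, with at most 7 and 10 UMIs per cell. With each cell thinned to 1000 UMIs, which leaves out shallower cells, 0.491% of 3870 MM.1S cells had a CCL2 UMI in monoculture (exact Clopper-Pearson interval 0.296 to 0.766%) and 6.88% of 378 in coculture (4.54 to 9.92%). Without thinning the shares were 0.811% and 6.33%. In HS-5 cells the thinned share went from 2.00% of 1802 (1.40 to 2.76%) to 5.49% of 1002 (4.16 to 7.09%), and the unthinned one from 2.12% to 5.74%. Without the 5 cells with most CCL2 UMIs in each sum, the log2 ratio was 4.67 in MM.1S and 2.06 in HS-5. All Poisson, binomial and ratio intervals here cover counting error only.

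Droplets of the coculture also hold free RNA of the other line, so the counts were set against what that RNA would give. From the other line's specific genes, 1.63% of the UMIs in MM.1S cells came from HS-5 RNA, and 0.794% of those in HS-5 cells from MM.1S RNA. Free RNA at that rate gives 1.92 CCL2 UMIs in the MM.1S cells, where 138 were counted (116 to 163), and 2.05 in the HS-5 cells, where 221 were counted (193 to 252). Subtracting it left the log2 ratios at 4.33 and 1.98. For CCL20 in MM.1S cells, 1.49 UMIs were expected and 1 was counted (0.0253 to 5.57). At 1000 UMIs per cell, 0 of 378 MM.1S cells in coculture had a CCL20 UMI (exact upper limit 0.971%, a limit on cells with a UMI and not on cells expressing the gene). For CCL5 in HS-5 cells, 0.922 UMIs were expected and none was counted, and the level in MM.1S cells was at least 30.5-fold higher by the exact interval (38.7-fold when taken against 3 counts over the HS-5 sum). For CCL7 in MM.1S cells, 0.347 UMIs were expected and 2 counted (0.242 to 7.22).

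The CCL2 level of MM.1S cells did not rise with their share of UMIs of the 198 HS-5 genes. These genes carried 7.11% of the UMIs of HS-5 cells in coculture, so a cell without one may still hold HS-5 RNA. The 622 MM.1S cells in coculture without a UMI of these genes had 131 CCL2 CPM (98.7 to 171). The 565 cells with an HS-5 share of up to 5% had 99.4 CPM (75.9 to 128). The 456 cells with a share from 5 to 20% had 75.5 CPM (47.9 to 113). Depth differed too, with medians of 589, 897 and 564 UMIs in these groups of cells. COL1A1, a collagen chain made by HS-5 cells, went the other way over these cells, from 0 to 3.31 and 32.8 CPM, as it had to, being one of the genes behind the share. In HS-5 cells without a UMI of the 69 MM.1S genes, CCL2 stood at 92.0 CPM (77.3 to 109, 1432 cells). In the other 676 cells it stood at 84.0 CPM (66.8 to 104). MM.1S cells in coculture with under 1000, 1000 to 2000 and 2000 or more UMIs had 116, 84.7 and 97.4 CCL2 CPM, with intervals that overlap. In monoculture, those with 1000 to 2000 and 2000 or more UMIs had 3.70 and 4.29 CPM, and the 77 shallowest cells held 1 UMI. In HS-5 cells the same classes had 95.4, 108 and 57.2 CPM in coculture, where the last (41.4 to 77.1) lay below the middle one (88.4 to 130), and 17.4, 24.3 and 22.5 CPM in monoculture. The ratio in HS-5 was thus smallest in the deepest cells, and the part of depth in it was not tested.

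CCL7, the neighbour of CCL2, was higher in coculture in HS-5 cells. It went from 5.54 to 16.1 CPM (11.5 to 21.9, 40 UMIs), 2.91 times higher (1.79 to 4.73) and a log2 ratio of 1.39, the 24th highest of 8813. CCL7 was selected on these values and reached a mean of 10 CPM only through coculture, so nothing is read from its rank. In monoculture 1 cell held 8 of the 34 UMIs. Over the cells with 2000 or more UMIs, where most monoculture UMIs lay, the levels were 8.0 CPM (5.27 to 11.6) and 17.3 CPM (9.21 to 29.6), and these intervals overlap. With under 1000 UMIs they were 2.27 CPM (0.468 to 6.63, 3 UMIs) and 15.4 CPM (7.70 to 27.6). With 1000 to 2000 UMIs they were 2.77 CPM (0.756 to 7.10, 4 UMIs) and 15.7 CPM (8.95 to 25.4). In both of these classes the intervals do not overlap. At 1000 UMIs per cell, 0.388% of HS-5 cells had a CCL7 UMI in monoculture (0.156 to 0.799%) and 1.5% in coculture (0.840 to 2.46%). With the limits on cells of the cited Seurat tutorial, 200 to 2500 genes and under 5% mitochondrial UMIs, the log2 ratio was 2.34. In MM.1S cells CCL7 had 2 UMIs in each culture.

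The genes that flank CCL2 and CCL7 form a run of 6 CC chemokine genes within 108 kb of chromosome 17. CCL8, a monocyte attractant next in line after CCL11, had 0.479 CPM (5 UMIs) in MM.1S monoculture and 13.6 CPM (8.03 to 21.4, 18 UMIs) in coculture. That is 28.3 times higher, with an interval of 10.1 to 97.5, and the 18 UMIs lay in 10 cells, with 7 UMIs in 1 cell. At 1000 UMIs per cell, 0.0517% of MM.1S cells had a CCL8 UMI in monoculture (0.00626 to 0.187%). In coculture it was 0.265% (0.00670 to 1.47%), and these intervals overlap. In HS-5 cells CCL8 had 2 UMIs in monoculture and 9 in coculture (0.326 and 3.62 CPM), 11.1 times higher (2.30 to 106), and these 9 lay in 3 cells. CCL13, another monocyte attractant, had 2.30 CPM (24 UMIs) and 10.5 CPM (14 UMIs) in MM.1S cells, 4.58 times higher (2.19 to 9.22), and 1 and 0 UMIs in HS-5. Its share of MM.1S cells at 1000 UMIs was 0.207% (0.0893 to 0.407%) in monoculture and 0.794% (0.164 to 2.30%) in coculture. These intervals overlap too. CCL1, at the far end on the minus strand, differed little in MM.1S cells, with 15.1 CPM (158 UMIs) and 16.6 CPM (22 UMIs), a ratio of 1.09 (0.667 to 1.72). It had 0 and 1 UMIs in HS-5. CCL11, the eosinophil attractant eotaxin, had 2 UMIs in MM.1S monoculture and none elsewhere. Of 28 HS-5 cells with a CCL7 UMI in coculture, 9 also had a CCL2 UMI, beside 121 of all 2108 (5.74%). At 1000 UMIs per cell it was 4 of 15 (26.7%, 7.79 to 55.1%) beside 5.17% of the 987 without CCL7, and in monoculture 0 of 7 beside 2.01% of 1795. Of 10 MM.1S cells with a CCL8 UMI in coculture, 2 had a CCL2 UMI.

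CCR1 transcripts, already an MM.1S feature, were more abundant in coculture. The level went from 288 to 791 CPM (744 to 840, 1050 UMIs), 2.75 times higher (2.56 to 2.95) and a log2 ratio of 1.46. Of 7834 genes, 8.92% had a higher ratio. At 1000 UMIs per cell, 24.4% of MM.1S cells had a CCR1 UMI in monoculture (23.0 to 25.8%) and 50.5% in coculture (45.4 to 55.7%). Without thinning the shares were 45.5% and 42.7%, in libraries whose MM.1S cells had medians of 2201 and 668 UMIs. In no depth class did the levels approach each other. Cells with under 1000, 1000 to 2000 and 2000 or more UMIs had 206, 302 and 284 CPM in monoculture, against 790, 794 and 787 CPM in coculture. CCR1 UMIs were spread over many cells, with 1.77% of them in the top 5 cells in monoculture and 2.57% in coculture.

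In HS-5 cells CCR1 was at the edge of detection. Of the 15 monoculture UMIs, 11 came from a single cell with 931 UMIs and an HS-5 share of 100%, and the rest of the cells held 0.651 CPM. In coculture there were 29 UMIs (11.7 CPM, 7.81 to 16.7), of which free RNA of MM.1S would give 15.6, or 53.9%. Cells without any MM.1S UMI had 8.60 CPM (4.58 to 14.7) and those with one 16.4 CPM (9.37 to 26.6), whereas JCHAIN, a plasma cell gene behind that share, had 0 and 77.9 CPM. After subtraction 5.42 CPM remained. The log2 ratio was 1.88 before and 0.90 after subtraction. All 15 monoculture UMIs lay in 5 cells, so no ratio can be given without them. At 1000 UMIs per cell, 0 of 1802 monoculture cells had a CCR1 UMI (exact upper limit 0.205%, a limit on cells with a UMI at this depth), and 0.399% of 1002 did in coculture (0.109 to 1.02%).

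CCL5 was lower in MM.1S cells in coculture, from 79.9 to 46.7 CPM (35.8 to 59.9, 62 UMIs). That is 0.584 times the monoculture level (0.444 to 0.756) and a log2 ratio of -0.76. Of 7834 genes, 90.3% had a higher ratio. In monoculture the transcript was uneven, with up to 42 UMIs in a cell, 446 positive cells and 103 cells with 2 or more. In coculture 50 cells were positive, with at most 4 UMIs. Without the 5 top cells of each sum the log2 ratio was -0.86. The share of positive cells at 1000 UMIs did not go with the level, at 5.01% (4.35 to 5.75%) in monoculture and 6.08% (3.90 to 8.99%) in coculture, so no order is read from it. CCL5 also moved with depth in monoculture, from 13.7 CPM in cells under 1000 UMIs (1 UMI) to 61.3 CPM at 1000 to 2000 and 86.3 CPM at 2000 or more. Within the class of 1000 to 2000 UMIs the coculture level was 52.6 CPM (33.4 to 79.0) and the monoculture level 61.3 CPM (51.8 to 71.9), and the intervals overlap. In coculture the level was 43.6 CPM (30.0 to 61.2) under 1000 UMIs and 45.0 CPM (16.5 to 97.8) at 2000 or more. These intervals also overlap those of monoculture (0.347 to 76.4 and 79.9 to 93.0 CPM). The part of depth in the lower level was not tested further.

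CCL20 in HS-5 cells was nearly the same in both cultures, with 69.7 and 69.2 CPM (59.2 to 80.3, 172 UMIs). The ratio was 0.993 (0.827 to 1.19), an interval that leaves room for a change of that size either way. Its share of cells at 1000 UMIs was 5.94% (4.89 to 7.13%) in monoculture and 4.89% (3.64 to 6.41%) in coculture. CCL3 had no UMI in coculture, where 3 counts would be 2.26 CPM in MM.1S and 1.21 CPM in HS-5. Its close relatives CCL4, CCL3L3 and CCL4L2 also had no UMI in coculture and at most 3 in a monoculture.

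Of the 6 genes, 3 averaged 10 CPM or more in MM.1S cells and 3 in HS-5 cells, the same minimum that defined the genes counted as background. In MM.1S, CCL2 and CCR1 were at least 2-fold higher in coculture, as were 19% of 7834 genes, and none was at least 2-fold lower, as were 5.82%. In HS-5, CCL2 and CCL7 were at least 2-fold higher, as were 1.2% of 8813 genes, and none lower, as were 1.79%. CCL2 in MM.1S and CCL7 in HS-5 passed that minimum only through their coculture level. The median log2 ratio of all genes was 0.24 in MM.1S and -0.03 in HS-5. Relative to it, CCL2 stood at 4.09 and 2.01, CCR1 in MM.1S at 1.21, CCL7 in HS-5 at 1.42 and CCL5 in MM.1S at -1.01.

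The 6 genes belong to a larger family with few counts here. Of 28 CC chemokine ligands in the list, 22 were found in the counts. CCL26, an eosinophil attractant, stayed at 5.70 and 5.63 CPM in HS-5 cells, and CCL28, a mucosal chemokine, had 2.93 CPM (18 UMIs) in monoculture and 6.43 CPM (16 UMIs) in coculture, 2.20 times higher (1.05 to 4.56). Among ligands averaging 10 CPM or more, 1 of 3 was at least 2-fold higher in MM.1S (CCL2) and 2 of 3 in HS-5 (CCL2 and CCL7), beside 19% and 1.2% of all genes, with list medians of 0.12 and 1.39. These calls are members selected on their values, and CCL2 in MM.1S and CCL7 in HS-5 reached 10 CPM only through coculture, so nothing is read from the counts.

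The receptors for the other ligands were scarce. All 15 CC and atypical receptors were found, and only CCR1 in MM.1S and ACKR3 in HS-5 averaged 10 CPM or more. CCR2, the main receptor of CCL2, had 5.66 CPM (59 UMIs) in MM.1S monoculture and 2.26 CPM (3 UMIs) in coculture, a ratio of 0.399 (0.0801 to 1.23). In HS-5 it had 3 and 0 UMIs. CCR6, the receptor of CCL20, had at most 4 UMIs in any sum. CCR3, the eosinophil receptor in whose span CCR1 lies, had 10.8 CPM (113 UMIs) and 6.02 CPM (8 UMIs) in MM.1S cells, a ratio of 0.556 (0.234 to 1.13) beside the 2.75 of CCR1. In HS-5 cells, CCRL2, an atypical receptor of chemerin, had 1.95 CPM (12 UMIs) in monoculture and 6.03 CPM (15 UMIs) in coculture, 3.09 times higher (1.35 to 7.22). CCR10, a receptor of CCL28, had 6.19 CPM (38 UMIs) and 4.42 CPM (11 UMIs), a ratio of 0.715 (0.330 to 1.43). ACKR3, a scavenging receptor for CXCL12, was lower in HS-5 cells in coculture, at 57.6 CPM (354 UMIs) in monoculture and 24.1 CPM (60 UMIs) in coculture, 0.419 times (0.313 to 0.552).

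Chemokine receptors signal through inhibitory G proteins, and kinases of the GRK family and arrestins switch them off. Of 24 genes of this machinery, all were found. In MM.1S cells 15 averaged 10 CPM or more, of which 4 were at least 2-fold higher in coculture and 0 lower, beside 19% and 5.82% of all genes. Their median log2 ratio was 0.42, beside 0.24 over all genes. The 4 were the G protein subunits GNB1 (log2 ratio 2.25), GNAI2 (1.56) and GNB2 (1.27) and the lipid kinase subunit PIK3CG (1.65). In HS-5 cells 13 reached that mean, with a median of -0.04 beside -0.03. By the log2 ratio with its pseudocount, 0 were at least 2-fold higher and 1 lower, beside 1.2% and 1.79% of all genes. The one was GRK2, a kinase that desensitises receptors, with 24.7 and 10.5 CPM (log2 ratio -1.17). GNAI1 fell just short at 0.999. Without the pseudocount it was 2.07 times higher (1.48 to 2.90), with 13.2 and 27.3 CPM. RGS16, which speeds the shut-off of G proteins, had 37.1 and 67.0 CPM in MM.1S cells, 1.81 times higher (1.42 to 2.28).

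Cells with a UMI of one gene were compared with the rest for others, at 1000 UMIs per cell. Such shares also rise with how well a cell was captured and are given as a description. In MM.1S cells in coculture, 12 of 26 cells with a CCL2 UMI had a CCR1 UMI (46.2%, 26.6 to 66.6%), beside 50.9% of the 352 without (45.5 to 56.2%). CCL5 was found in 3 of these 26 cells and in 5.68% of the 352. In HS-5 cells in coculture, 47 of 55 cells with a CCL2 UMI had an IL6 UMI (85.5%, 73.3 to 93.5%), beside 50.4% of the 947 without (47.1 to 53.6%). In monoculture these shares were 83.3% of 36 and 51.9% of 1766 cells. CXCL8, a neutrophil attractant, was found in 76.4% and 45.9% of the coculture cells, and IL1B in 69.1% (55.2 to 80.9%) and 62.0% (58.8 to 65.1%). CCL20-positive HS-5 cells had an IL6 UMI in 77.6% of 49 cells in coculture, beside 51.0% of 953 without.

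The genes whose levels over the 4 sums lay nearest to each member were sought among 8863 genes averaging 10 CPM or more, by Euclidean distance of mean-centred log2(CPM + 1) values. With 4 points, this is a description. Nearest to CCL2 were PA2G4P6, SOCS3 and AC008155.1, at distances of 1.12, 1.32 and 1.45. PA2G4P6 is a pseudogene that may share reads with its parent. SOCS3, a feedback inhibitor of cytokine receptors, had 1.05 and 25.6 CPM in MM.1S and 18.7 and 28.6 CPM in HS-5 cells. Nearest to CCR1 were TUBB2B, SLC38A5 and TNFRSF13B (0.72 to 0.80), to CCL5 AC092447.7, LINC01229 and the kinase gene PIM2 (0.16 to 0.47), and to CCL20 ASPH, PTGR1 and HOXC9 (0.14 to 0.24).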

How the data were processed

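UMI counts per gene and cell barcode were deposited by the authors without normalization, in 3 tables that list genes with at least 1 UMI. A gene without a row was taken as 0. The submitters' processing notes name STAR 2.5.3a, featureCounts 1.6.4, UMI-tools 1.0.0, SAMtools 1.9, Cell Ranger 3.0.2 and GRCh38, with no roles, and whether counting used strand is not given in the sources used here. The authors' own analyses used Seurat v2.4.

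For the values here, cells needed 200 or more genes, coculture cells were assigned to a line from genes at least 50-fold higher in one monoculture (at least 50 CPM, pseudocount 0.5, all CC chemokine and receptor genes left out), and UMIs were summed per line and culture and scaled to CPM. No doublet caller was run, and cells of mixed share were left out. Poisson, Clopper-Pearson and conditional ratio intervals are exact, at 95% (Python 3.11.15, scipy 1.17.1, numpy 2.4.6, pandas 2.3.3). The steps were tested on simulated data, in which only MM.1S cells were given free RNA and changed levels. The changed genes had higher monoculture levels than CCL2 and CCL7, so the simulation does not cover genes as low as these. The genes named are the 6 members, genes of the fixed lists with at least 10 CPM in a sum, the 3 nearest profiles and fixed partner genes, and others (CCL3L3, CCL4, CCL4L2, CCL11, CCL26, CCL28, CCR2, CCR6, CCR10, CCRL2, RGS16 and IL1B among them) were added as receptors, relatives, neighbours or list members. The members and lists were chosen with earlier results of these data known. Alternatives were other limits on cells, scalings, pseudocounts, line limits and depths, with 3 chosen after seeing the data.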

Additional observations from a re-analysis of the deposited data

Results flagged for a closer look

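The 105 coculture cells of mixed line share, used in no comparison, had 143 CCL2 CPM (90.7 to 215, 23 UMIs), above the 4.22 and 21.8 CPM of the monocultures. They also had 311 CPM of CCR1 and 112 CPM of CCL20.

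For 4 G protein subunit genes, the ratio of coculture to monoculture lay on opposite sides of 1 in MM.1S and HS-5 cells, each beyond counting error. The log2 ratio in MM.1S minus that in HS-5 was -1.70 for GNAI1, 1.84 for GNAI2, 1.58 for GNB2 and -1.03 for GNG5. With 1 library per condition, these differences were not tested. How many of all genes did the same was not counted, so nothing particular to these 4 genes is read from it.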

How the results depend on the processing

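No paired analysis was possible because each condition is 1 library, and no library could be left out. Of 84 log2 ratios of the members under the alternatives, without those of CCR1 in HS-5, 79 moved by less than their counting interval. The others were CCL5 in MM.1S at -1.30 and CCL7 in HS-5 at 2.34 with the tutorial's limits on cells, CCR1 in MM.1S at 1.35 with median-of-ratios scaling, and CCL2 in MM.1S at 3.56 with a pseudocount of 5 and at 4.11 in cells with at least 1000 UMIs. CCL2 in MM.1S ranged from 3.56 to 4.67, CCR1 in MM.1S from 1.35 to 1.54, CCL5 from -1.30 to -0.58, CCL2 in HS-5 from 1.81 to 2.18, CCL7 from 1.00 to 2.34 and CCL20 from -0.19 to 0.23. Of 14 ratios of CCR1 in HS-5, 12 moved by less than their counting interval. The other 2 were 0.90 with free RNA subtracted and 1.16 with a pseudocount of 5. The 12 include the value without the 5 top cells, 3.18. Those cells held all monoculture UMIs, so 3.18 rests on the pseudocount and is no ratio of levels. Apart from it, the ratio ranged up to 2.98, in cells with at least 1000 UMIs. There the monoculture held 1 UMI at 1000 to 2000 UMIs per cell and 1 at 2000 or more. The CCL2 level of MM.1S cells in coculture was 131 CPM in cells without a UMI of the 198 HS-5 genes. This alternative was chosen after seeing the data, as were the minimum of 1000 UMIs and leaving out the 5 top cells. Counts of genes at least 2-fold higher and lower in HS-5 went from 106 and 158 to 351 and 335 with the tutorial's limits, 396 and 318 with equal weight per cell, 63 and 88 with a pseudocount of 5, 43 and 51 at a minimum of 50 CPM and 1273 and 1397 with no minimum. In MM.1S they went from 1485 and 456 to 503 and 156 at 50 CPM and 4282 and 2288 with no minimum. The causes were not tested, beyond the fewer or more genes counted under the last 2 settings. Depth limits CCL3 and CCL7 in MM.1S and CCR1 in HS-5, where 0 to 29 UMIs were counted.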
